A study of Mus musculus with 8 samples.

Results

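The 9 genes described here are markers of excitatory neurons of the thalamus and midbrain: Slc17a6, Prkcd, Tcf7l2, Rora, Zic1, Lef1, Synpo2, Calb2 and Tnnt1. They were taken by gene symbol from the deposited expression table, in which each symbol has 1 row, and make up 9 of its 54532 genes. All 9 reached the mean of 1 FPKM (fragments per kilobase of gene, scaled to library size) that was asked of a gene before it was tested. The thalamus lies above and in front of the midbrain, so transcripts of its relay neurons in tissue labelled substantia nigra bear on what a dissected piece contained.

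Brain tissue labelled as substantia nigra was sequenced from male C57BL/6 mice, with 2 libraries in each of 4 groups. The AAV-α-synuclein group (called vector here) received an adeno-associated virus carrying α-synuclein, which forms the Lewy body aggregates of Parkinson's disease. The AKG group received α-ketoglutarate, an intermediate of the citric acid cycle, which the title of the study places in the diet, and the AAV-α-synuclein+AKG group (called combined) received both. Control mice are wild-type and have the treatment label control. No group is described by age, by the promoter of the vector or by a mock injection, and 2 libraries of a group are not said to be 2 animals, so p-values measure the spread between libraries, which may be technical.

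Thalamic relay neurons carry sensory and motor signals to the cortex and use the vesicular glutamate transporter VGLUT2, which Slc17a6 encodes, as do excitatory neurons of the midbrain. Their identity is set by transcription factors that stay on in the adult, among them the Wnt effectors Tcf7l2 and Lef1 and the nuclear receptor Rora. Several of the 9 genes are also known from other cells: Calb2 from interneurons and some dopamine neurons, Zic1 and Rora from the cerebellum, Tcf7l2 from newly formed oligodendrocytes, Lef1 from brain endothelium, and Synpo2 and Tnnt1 from muscle.

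Each library held 16544190.0 to 19125423 reads on genes, which gave Lef1, the gene with the fewest reads of the 9, 180.0 to 633 reads and Slc17a6 5543 to 8514. Control library 1 stood apart from the rest. Its mean Spearman correlation with the other 7 libraries was 0.926, against 0.971 to 0.975 for each of the others, and Ttr, a choroid plexus gene, was at 8778 FPKM in it, against 44.0 to 4857 FPKM elsewhere. Relative to the other libraries its FPKM were lower for longer genes, with a rank correlation of -0.52 across genes. This correlation was -0.28 in control library 2 and -0.17 in combined library 2, against 0.10 to 0.47 in the other treated libraries. Leaving out control library 1 therefore does not remove the length trend from the comparisons with control. The 2 control libraries differed from each other by 59.3 times counting noise (chi-square per degree of freedom), against 9.72 in the vector, 10.04 in the AKG and 26.2 in the combined group. Differences or medians against control are therefore also given without control library 1 for the 9 genes and for each gene list.

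All 9 genes were expressed in all 8 libraries, and 8 of them were higher on average in each of the 3 treated groups than in control mice. The exception was Calb2, which was highest in control mice. The differences from control were as large as 1.81 ± 0.47 on the log2 scale (Prkcd in AKG mice, ± SE), but the 2 control libraries lay far apart and no gene of the 9 passed the test (limma, adjusted p under 0.05) in any comparison. In tissue RNA, fewer cells of a type and less RNA per cell cannot be told apart. The nigral marker Th was at 38.8 FPKM in both control libraries and 10.4 to 16.6 FPKM in treated ones. Its RNA was thus present in every library beside that of the 9 genes. Slc6a3, also listed for dopamine neurons, was at 24.1 and 28.5 FPKM in control libraries, against 0.61 to 11.9 FPKM in treated ones. Control library 1 was the lowest of the 8 libraries in 8 of the 9 genes and the highest for Calb2. Among all tested genes it was the lowest for 36.1% and the highest for 31.6%.

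**Figure D1:**
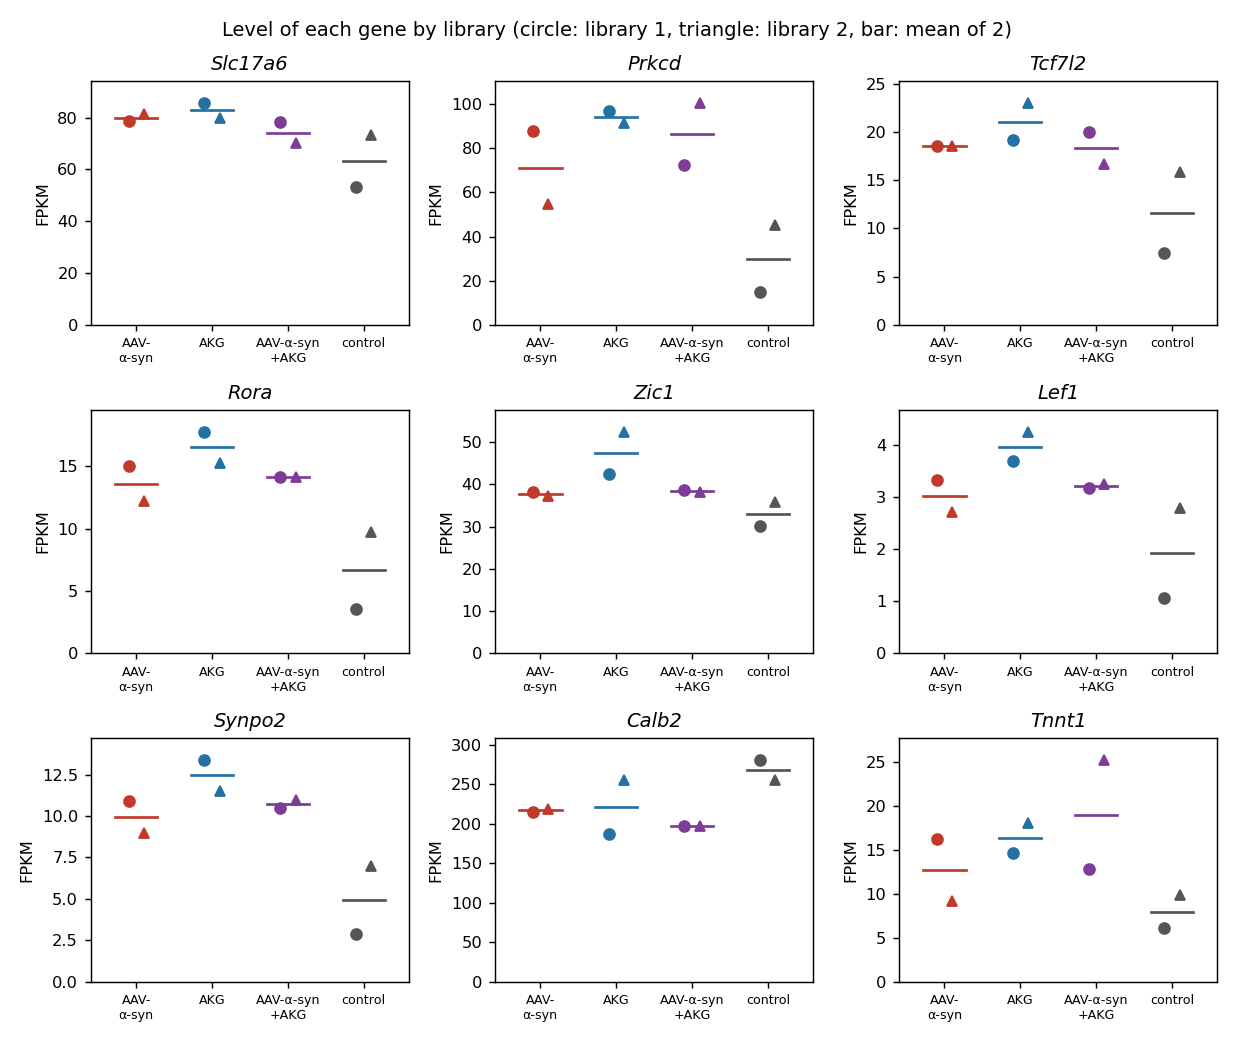
FPKM of each of the 9 genes in each library (circle, library 1; triangle, library 2) with the mean of a group as a bar; each panel has its own vertical axis from 0. Control library 1, at 15.0 FPKM for Prkcd and 3.52 FPKM for Rora, is below all other libraries in every panel but that of Calb2, where it is above them.

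Slc17a6 (ENSMUSG00000030500, chromosome 7, 51622006 to 51671119, plus strand; coordinates in GRCm38) encodes the transporter that loads glutamate into vesicles in thalamic and midbrain neurons. It was at 78.6 and 81.6 FPKM in vector libraries, 85.6 and 80.0 FPKM in AKG libraries and 78.2 and 70.3 FPKM in combined libraries, against 53.1 and 73.1 FPKM in control libraries. The vector and AKG libraries were above both control libraries, while the combined libraries overlapped them. Slc17a6 varied least of the 8 genes that were higher in treated mice after control library 1 was set aside, by 1.22-fold between the lowest and highest library, against 1.61-fold over all 8. Within its family, Slc17a6 averaged 75.1 FPKM over the 8 libraries, the cortical transporter gene Slc17a7 30.1 FPKM and Slc17a8 0.909 FPKM.

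Prkcd (ENSMUSG00000021948, chromosome 14, 30595354 to 30626210, minus strand) encodes protein kinase C delta, a signalling kinase abundant in thalamic relay neurons. It was at 88.0 and 54.6 FPKM in vector libraries, 97.1 and 91.5 FPKM in AKG libraries and 72.3 and 100.4 FPKM in combined libraries, against 15.0 and 45.0 FPKM in control libraries. All 6 treated libraries were above both control libraries, and the highest library was 6.71-fold above the lowest, the widest range of the 9 genes. Without control library 1 the range was 2.23-fold. The ratio of Prkcd to Slc17a6 was 0.669 to 1.43 in treated libraries, against 0.281 in control library 1 and 0.616 in control library 2. With an average of 70.5 FPKM, Prkcd was above Prkcz at 29.6 FPKM and Prkce at 27.5 FPKM. It was also above Th, which makes the dopamine precursor L-DOPA, in 7 of 8 libraries: the ratio of Prkcd to Th was 3.39 to 9.06 in treated libraries, against 0.385 and 1.16 in control libraries. Lower Th also raises this ratio: Th was at 10.4 to 16.6 FPKM in treated libraries, against 38.8 FPKM in both control libraries.

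Tcf7l2 (ENSMUSG00000024985, chromosome 19, 55741810 to 55933654, plus strand) and Lef1 (ENSMUSG00000027985, chromosome 3, 131110471 to 131224356, plus strand) encode DNA-binding partners of β-catenin in Wnt signalling. Tcf7l2 was at 18.5 FPKM in both vector libraries, 19.1 and 23.0 FPKM in AKG libraries and 19.98 and 16.6 FPKM in combined libraries, against 7.46 and 15.8 FPKM in control libraries. All 6 treated libraries were above both control libraries, the lowest of them by a small margin. Lef1 was the lowest of the 9 genes, at 3.32 and 2.71 FPKM in vector, 3.68 and 4.25 FPKM in AKG and 3.16 and 3.24 FPKM in combined libraries, against 1.06 and 2.79 FPKM in control libraries. Its second control library lay within the range of the vector libraries. The remaining factors of the family were lower, with averages of 1.44 FPKM for Tcf7 and 0.992 FPKM for Tcf7l1.

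Rora (ENSMUSG00000032238, chromosome 9, 68653786 to 69388246, plus strand) encodes a nuclear receptor of thalamic and Purkinje neurons. It was at 15.0 and 12.2 FPKM in vector libraries, 17.8 and 15.3 FPKM in AKG libraries and 14.2 and 14.1 FPKM in combined libraries, against 3.52 and 9.76 FPKM in control libraries. The 3 treated groups kept a narrow range and control library 1 was far below control library 2, so that 5.05-fold separated the lowest from the highest library, and 1.82-fold without control library 1. Rora averaged 12.7 FPKM, against 3.98 FPKM for Rorb.

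Zic1 (ENSMUSG00000032368, chromosome 9, 91358058 to 91365810, minus strand) encodes a zinc finger transcription factor of the medial thalamus and cerebellum. It was at 38.1 and 37.2 FPKM in vector libraries, 42.5 and 52.5 FPKM in AKG libraries and 38.5 and 38.3 FPKM in combined libraries, against 30.1 and 35.8 FPKM in control libraries. The groups did not overlap, with AKG highest and control lowest, but the step between the lowest treated and the highest control library was small. Zic1 averaged 39.1 FPKM, against 23.8 FPKM for Zic2, 3.91 FPKM for Zic5 and 3.10 FPKM for Zic4.

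Synpo2 (ENSMUSG00000050315, chromosome 3, 123076519 to 123236149, minus strand) encodes an actin-binding protein of muscle Z-discs that also marks thalamic neurons. It was at 10.9 and 8.95 FPKM in vector libraries, 13.4 and 11.5 FPKM in AKG libraries and 10.5 and 10.9 FPKM in combined libraries, against 2.86 and 6.96 FPKM in control libraries. All treated libraries were above both control libraries, as for Rora. Tnnt1 (ENSMUSG00000064179, chromosome 7, 4504570 to 4516382, minus strand) encodes the troponin T of slow skeletal muscle. It was at 16.3 and 9.14 FPKM in vector, 14.7 and 18.1 FPKM in AKG and 12.8 and 25.2 FPKM in combined libraries, against 6.06 and 9.87 FPKM in control libraries. Neighbouring groups overlapped throughout, and as a ratio the 2 vector and the 2 combined libraries lay further apart than for any other of the 9 genes. The cardiac and fast skeletal forms Tnnt2 and Tnnt3 averaged 0.296 and 0.261 FPKM.

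Calb2 (ENSMUSG00000003657, chromosome 8, 110137502 to 110168210, minus strand) encodes calretinin, a calcium-binding protein of midline thalamic neurons, interneurons and some dopamine neurons. It was the highest of the 9 genes, at 214.8 and 219.2 FPKM in vector libraries, 187.2 and 255.36 FPKM in AKG libraries and 196.7 and 197.2 FPKM in combined libraries, against 280.6 and 255.40 FPKM in control libraries. The treated libraries were all below both control libraries, but AKG library 2 and control library 2 were almost equal. The ratio of Calb2 to Slc17a6 was 2.19 to 3.19 in treated libraries, against 5.28 and 3.49 in control libraries. Calb2 averaged 225.8 FPKM, against 101.6 FPKM for Pvalb and 42.0 FPKM for Calb1.

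The 250 bases before the RefSeq transcription start were read for each gene with an entry in the promoter table (GRCm38.p6), which held 8 of the 9. Those of Prkcd, Rora and Synpo2 are shown because these 3 genes had the largest differences from control in vector and AKG mice. They lie at chr14:30626209-30626458 on the minus strand for Prkcd, chr9:68653536-68653785 on the plus strand for Rora and chr3:123236150-123236399 on the minus strand for Synpo2, and are written 5′ to 3′ with a TCF/LEF motif in capitals.
Prkcd: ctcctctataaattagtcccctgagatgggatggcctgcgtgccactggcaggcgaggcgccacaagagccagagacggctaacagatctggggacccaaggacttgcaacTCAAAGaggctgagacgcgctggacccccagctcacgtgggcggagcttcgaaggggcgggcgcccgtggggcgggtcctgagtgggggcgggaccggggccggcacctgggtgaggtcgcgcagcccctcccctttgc
Rora: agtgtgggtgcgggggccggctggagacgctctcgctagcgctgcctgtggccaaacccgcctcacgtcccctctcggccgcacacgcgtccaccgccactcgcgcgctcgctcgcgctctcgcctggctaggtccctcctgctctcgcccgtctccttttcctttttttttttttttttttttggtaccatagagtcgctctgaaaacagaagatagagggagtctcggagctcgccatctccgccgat
Synpo2: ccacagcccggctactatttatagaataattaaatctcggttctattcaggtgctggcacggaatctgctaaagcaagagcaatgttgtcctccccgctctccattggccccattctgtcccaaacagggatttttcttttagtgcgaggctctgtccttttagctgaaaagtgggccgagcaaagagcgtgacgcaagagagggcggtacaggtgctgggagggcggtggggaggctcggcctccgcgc
Both strands were searched for CTTTGA, a core of the sites bound by TCF/LEF factors such as Tcf7l2 and Lef1, and for AGGTCA, the half-site bound by Rora. CTTTGA was found in 1 of the 8 windows, that of Prkcd, where it reads TCAAAG and starts 139 bases before the transcription start, against 13.8% of all 32851 windows of this length. AGGTCA was found in 0 of the 8 windows, against 14.02% of all windows. The GC content of the 3 windows was 67.6% for Prkcd, 61.2% for Rora and 54.4% for Synpo2, against a median of 52.4% over all windows.

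Vector mice were set against control mice, a comparison in which α-synuclein, virus and injection cannot be told apart, since no mock injection is described. On the log2(FPKM + 1) scale, which understates changes of low genes, 8 of the 9 genes were higher, against 48.8% of tested genes, and Calb2 was lower, with a median difference of 0.60 over the 9 genes and -0.0087 over all 13716 tested genes. By limma with Benjamini-Hochberg adjustment over all tested genes, 0 of the 9 were called, as were 0% of tested genes at an adjusted p under 0.05; limma-voom on recovered reads also called 0 of the 9, here and in every other comparison. At an unadjusted p under 0.05, 4 of the 9 were higher (Prkcd, Tcf7l2, Rora and Synpo2), against 9.27% of tested genes. The libraries of both groups did not overlap for 6 genes that were higher, against 26.3% of tested genes, and for Calb2 among those that were lower, against 27.6%.

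The difference was 1.38 ± 0.47 for Prkcd, 1.06 ± 0.36 for Rora and 0.97 ± 0.30 for Synpo2 (± SE, n = 2 libraries per group, limma adjusted p = 0.294 for each). These values lay above 99.4% to 99.9% of the differences of tested genes. Tcf7l2 was 0.71 ± 0.29 higher, also with an adjusted p of 0.294, Slc17a6 0.36 ± 0.16 higher (adjusted p = 0.303) and Zic1 0.19 ± 0.14 higher (adjusted p = 0.435). Calb2 differed by -0.30 ± 0.16 (adjusted p = 0.342). The libraries of Lef1 and Tnnt1 overlapped, with differences of 0.52 ± 0.27 and 0.60 ± 0.38. Without control library 1 the differences were 0.61 for Prkcd, 0.43 for Rora, 0.45 for Synpo2 and 0.22 for Tcf7l2, with adjusted p from 0.761 to 0.898 over the 9 genes, and their median was 0.22. In that setting Slc17a6 differed by 0.13, Lef1 by 0.079 and Zic1 by 0.070. Without control library 2 instead, which leaves control library 1 as the only control, the median of the 9 genes was 0.96.

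AKG mice had the highest median difference from control, 0.88 over the 9 genes and -0.0098 over all tested genes. AKG had the highest mean of the 4 groups for 7 of the 9 genes. Against control 8 of the 9 were higher, against 48.6% of tested genes, and for the same 8 both AKG libraries lay above both control libraries, against 26% of tested genes; for Calb2 both lay below, against 26.4%. In this comparison 0 of the 9 genes were called, against 0.00729% of tested genes, which is 1 gene, Th. Th was lower in AKG mice, at 10.7 and 10.4 FPKM, against 38.8 FPKM in both control libraries (log2 difference -1.79 ± 0.13, limma adjusted p = 0.0414), but it was not called without a trend in eBayes, with the replicate block, with library weights, or when any 1 library other than control library 2 was left out. At an unadjusted p under 0.05, 8 of the 9 genes were higher, against 10.5% of tested genes.

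Prkcd averaged 94.3 ± 4.0 FPKM in AKG libraries and 30.0 ± 21.3 FPKM in control libraries (SD, n = 2 each), a log2 difference of 1.81 ± 0.47 (± SE). Rora averaged 16.5 ± 1.8 FPKM in AKG and 6.64 ± 4.41 FPKM in control libraries, a difference of 1.33 ± 0.36, and Synpo2 12.4 ± 1.3 FPKM in AKG and 4.91 ± 2.89 FPKM in control libraries, a difference of 1.27 ± 0.30. The limma adjusted p was 0.269 for these 3 genes and for Tcf7l2 (0.88 ± 0.29), Lef1 (0.83 ± 0.27) and Zic1 (0.51 ± 0.14). It was 0.272 for Tnnt1 (0.98 ± 0.38), 0.276 for Slc17a6 (0.40 ± 0.16) and 0.357 for Calb2 (-0.29 ± 0.16). For all of the 9 genes but Zic1 and Calb2 the SD was smaller among AKG than among control libraries. Without control library 1, Prkcd differed by 1.05, Synpo2 by 0.75, Rora by 0.70 and Tcf7l2 by 0.39, with adjusted p from 0.575 to 0.780 over the 9 genes. The median of the 9 genes was then 0.39, and Slc17a6 differed by 0.18. With control library 2 left out instead, so that control library 1 is the only control, the median was 1.29.

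Combined mice were compared with control to see the tissue under vector and AKG at once. Of the 9 genes, 8 were higher, against 49.2% of tested genes, with a median difference of 0.69 against -0.0055 over all tested genes, and 0 were called, as were 0% of tested genes. At an unadjusted p under 0.05, 4 genes were higher (Prkcd, Rora, Synpo2 and Tnnt1), against 8.71% of tested genes, and Calb2 was lower, against 5.19%. The combined libraries lay above both control libraries for 7 genes, against 21.3% of tested genes, and below both for Calb2, against 20.5%. Prkcd was 1.67 ± 0.47 higher, Tnnt1 1.12 ± 0.38, Rora 1.12 ± 0.36 and Synpo2 1.08 ± 0.30, and Calb2 differed by -0.44 ± 0.16, with a limma adjusted p of 0.349 for each (n = 2 libraries per group). For Slc17a6 the difference was 0.25 ± 0.16 (adjusted p = 0.456), the smallest but that of Zic1, at 0.22 ± 0.14. Without control library 1 it was 0.91 for Prkcd, 0.81 for Tnnt1, 0.56 for Synpo2, 0.49 for Rora and 0.019 for Slc17a6, with adjusted p from 0.877 to 0.988. The median of the 9 genes was then 0.19. With control library 2 left out instead, so that control library 1 is the only control, the median was 1.18. The 3 comparisons share the control libraries, so their likeness to one another is not separate evidence.

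**Figure D2:**
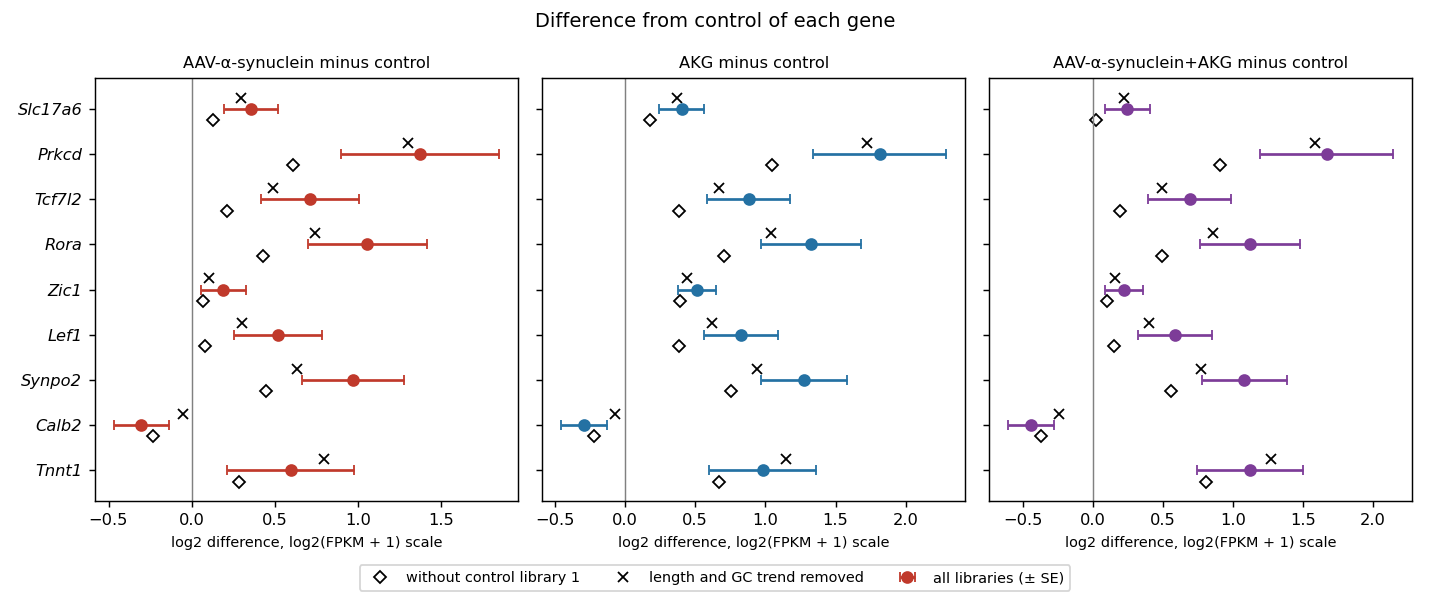
Log2 difference from control of each of the 9 genes on the log2(FPKM + 1) scale for vector, AKG and combined mice: filled points with bars are the estimate ± SE over all libraries, diamonds the estimate without control library 1, crosses that after removal of a trend in length and GC content. The filled point of Prkcd is at 1.38, 1.81 and 1.67, its diamond at 0.61, 1.05 and 0.91.

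Between treated groups no gene of the 9 was called. Combined against vector mice gave differences from -0.14 (Calb2) to 0.52 (Tnnt1) with a median of 0.062, and 6 of the 9 genes were higher, against 52.3% of tested genes. By limma 0 of the 9 were called, as were 0% of tested genes, and 0 reached an unadjusted p under 0.05, against 1.36%. The combined libraries lay above both vector libraries for 1 gene, against 12.9% of tested genes, and below both for 2, against 11.4%. The intervals remained wide: that of Prkcd ran from -0.83 to 1.42 and that of Rora from -0.78 to 0.91 (95%, log2 scale).

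Combined against AKG mice gave lower values for 8 of the 9 genes, from -0.29 ± 0.14 for Zic1, with 0.14 ± 0.38 for Tnnt1 as the exception; positive differences made up 49.5% over all tested genes. By limma 0 were called, as were 0% of tested genes, and 0 reached an unadjusted p under 0.05, against 1.14%. Both combined libraries lay below both AKG libraries for 5 genes, against 11.8% of tested genes, and above both for 0, against 11.3%. Zic1 was at 38.5 and 38.3 FPKM in combined libraries, against 42.5 and 52.5 FPKM in AKG libraries. The median difference of the 9 genes was -0.19, against -0.0011 over all tested genes.

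The difference with the vector was thus positive for 8 genes without AKG (all but Calb2) and negative for 8 genes with it (all but Tnnt1). For Slc17a6, Rora, Zic1 and Synpo2, 4 of the 9, both vector libraries lay above both control libraries and both combined libraries below both AKG libraries, as was so for 3.12% of tested genes. The test of this difference, the interaction, called 0 of the 9 genes and 0% of tested genes (limma adjusted p = 0.537 for 7 of them). At an unadjusted p under 0.05, 3 genes were lower (Rora, Zic1 and Synpo2), against 3.66% of tested genes. The interaction was positive for Calb2 alone of the 9, against 50.8% of tested genes. It was -1.52 ± 0.67 for Prkcd, -1.26 ± 0.51 for Rora and -1.17 ± 0.43 for Synpo2 on the log2 scale, and without control library 1 it was -0.76 for Prkcd, -0.64 for Rora and -0.64 for Synpo2. Without control library 2 instead, leaving only control library 1, the interaction was -2.28 for Prkcd, -1.89 for Rora and -1.69 for Synpo2. The interaction is the difference with AKG minus that without it, so the low control libraries also enter it. Over all libraries these differences were -0.14 and 1.38 for Prkcd, -0.21 and 1.06 for Rora and -0.19 and 0.97 for Synpo2.

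**Figure D3:**
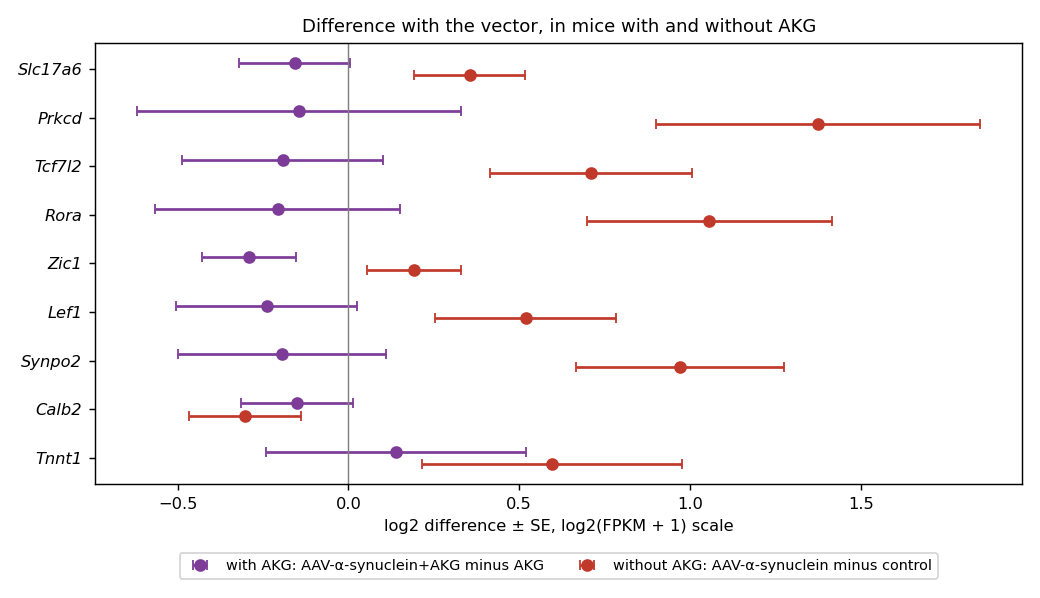
Log2 difference with the vector (log2(FPKM + 1) scale, ± SE) for each of the 9 genes, in mice with AKG (combined minus AKG, purple) and without it (vector minus control, red). For Zic1 the point is at -0.29 with AKG and at 0.19 without, and for Prkcd the bars are the widest of the 9.

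The differences moved with gene length. Of the 9 genes, 7 are longer than the median tested gene (4070.5 bases), Calb2 (1743 bases) and Tnnt1 (2204 bases) being the shorter ones. In vector against control mice, tested genes of 10000 to 15000 bases had a median difference of 0.27, with the middle 50% from 0.12 to 0.47, and those of 1000 to 2000 bases a median of -0.26. Rora (13071 bases) at 1.06 and Synpo2 (13138 bases) at 0.97 lay above the upper quartile of their length class, as did Prkcd (5544 bases) at 1.38, whose class of 5000 to 6000 bases had a median of 0.074 and an upper quartile of 0.23. The medians of these 3 classes were, without control library 1, 0.15, -0.15 and 0.019, and the upper quartiles were 0.26 for Rora and Synpo2 and 0.12 for Prkcd, again below the values of these genes. The other longer genes were closer to their classes in that setting. Lef1 (8788 bases) at 0.079 was below its class median of 0.094, and Zic1 (5693 bases) at 0.070 was below its upper quartile of 0.121. Tcf7l2 (8739 bases) at 0.216 and Slc17a6 (5399 bases) at 0.129 were just above upper quartiles of 0.210 and 0.121. Calb2 at -0.30 lay within the middle range of its class. After a trend in length and GC content was removed from each library, the vector difference was 1.30 for Prkcd, 0.74 for Rora, 0.64 for Synpo2, 0.49 for Tcf7l2, 0.30 for Lef1 and -0.049 for Calb2.

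**Figure D4:**
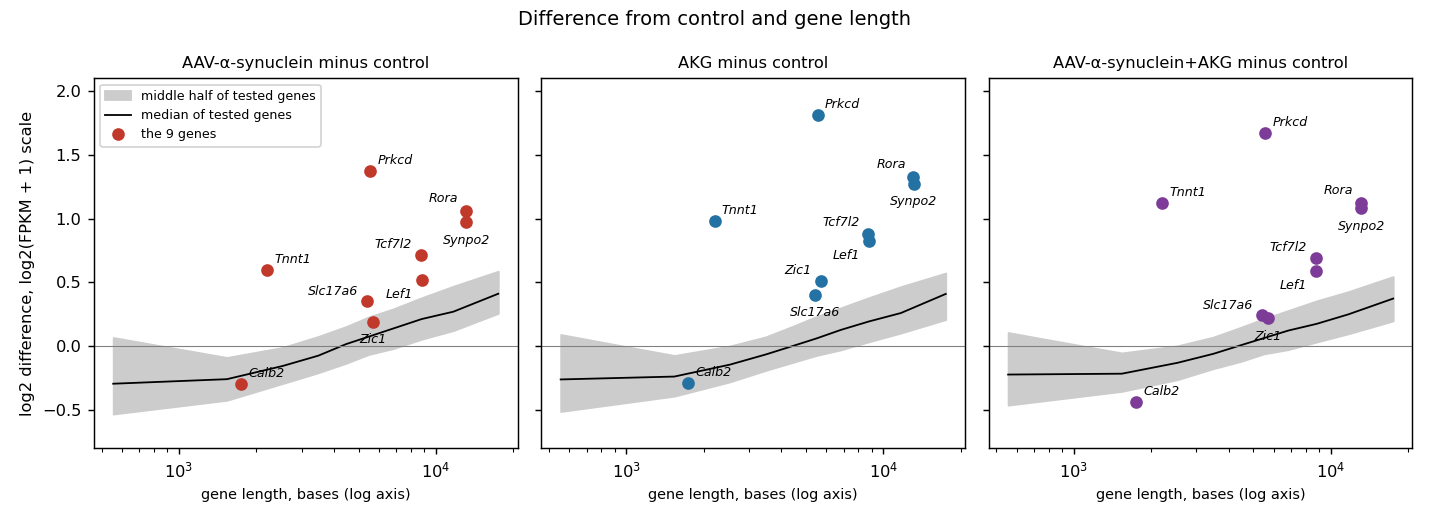
Log2 difference from control on the log2(FPKM + 1) scale against gene length (log axis, bases) for the 9 genes (points), with the median (line) and middle 50% (band) of tested genes by length class. Prkcd, at 1.38, 1.81 and 1.67, and Rora, at 1.06, 1.33 and 1.12, are above the band in all 3 comparisons, and the band itself rises with length.

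Other genes of the thalamus were also mostly higher in treated mice. Of 16 listed genes 15 were tested (Slc17a8 was too low), and 13 were higher in vector, 14 in AKG and 12 in combined than in control mice, with median log2 differences of 0.35, 0.81 and 0.60. Of these 0 were called by limma, and 4, 10 and 5 were higher at an unadjusted p under 0.05. Control library 1 was the lowest library for 13 of the 15, and without it 12, 13 and 10 were higher, with medians of 0.067, 0.35 and 0.14. Combined mice were lower than AKG mice for all 15, with a median of -0.17 and 0 called. The summed level of the list was 345.4 and 274.6 FPKM in vector, 368.9 and 375.1 FPKM in AKG and 308.9 and 359.2 FPKM in combined libraries, against 147.0 and 274.4 FPKM in control libraries, so that the second vector library and the second control library were level.

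The most abundant of these were Ramp3, Adarb1, Rgs16 and Kcnc2. Ramp3, a partner of receptors for calcitonin-family peptides, was at 78.7 and 54.7 FPKM in vector, 81.4 and 85.9 FPKM in AKG and 61.5 and 102.0 FPKM in combined libraries, against 33.8 and 62.2 FPKM in control libraries. Adarb1, an RNA-editing enzyme, was at 60.6 and 44.2 FPKM in vector, 59.3 and 61.7 FPKM in AKG and 53.8 and 58.4 FPKM in combined libraries, against 14.3 and 39.7 FPKM in control libraries. Only Adarb1 of these 2 separated all treated from both control libraries. Kcnc2, a fast potassium channel subunit, was at 28.2 and 27.8 FPKM in combined libraries and 23.7 to 31.4 FPKM in the other treated ones, against 8.37 and 23.3 FPKM in control libraries. Rgs16, an inhibitor of G-protein signalling, was at 23.5 FPKM in vector library 2, below the 31.8 FPKM of control library 2.

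Genes listed for excitatory nuclei next to the thalamus and nigra were mostly lower in treated mice, though some are not confined to these nuclei. The part of other cells in these differences was not tested. Of 12 tested genes listed for the habenula, subthalamic nucleus, red nucleus and tectum, 3 were higher and 9 lower in vector mice, 4 and 8 in AKG mice, and 2 and 10 in combined mice than in control mice, with medians of -0.096, -0.10 and -0.22. Of these 0 were called by limma, and 0, 2 and 1 were lower at an unadjusted p under 0.05. With control library 1 left out, 10, 9 and 11 were lower, with medians of -0.12, -0.14 and -0.23. Gpr151, a receptor of habenular neurons, was at 17.3 FPKM in both vector libraries, 11.6 and 36.4 FPKM in AKG libraries and 17.5 and 17.6 FPKM in combined libraries, against 32.7 and 23.2 FPKM in control libraries. AKG library 2 thus had more Gpr151 than any other library and AKG library 1 the least, while these libraries were close for Prkcd and Slc17a6.

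Forebrain excitatory neuron genes, of which 9 were tested, were higher for 8, 7 and 9 genes in vector, AKG and combined mice, with medians of 0.40, 0.55 and 0.49, 0 called by limma and 4 in each group higher at an unadjusted p under 0.05. With control library 1 left out, 8, 7 and 8 were higher, with medians of 0.27, 0.37 and 0.36. Camk2a, a kinase of excitatory synapses, was at 80.4 to 100.5 FPKM in treated libraries, against 40.0 and 62.5 FPKM in control libraries. Dopamine neuron genes went the other way: 11 of 12 were lower in each treated group, with medians of -0.69, -0.91 and -0.67, and 1 gene, Th, was called, in AKG mice. By limma 9, 7 and 7 of these 12 were lower at an unadjusted p under 0.05. All 12 were lower in each treated group without control library 1, with medians of -0.59, -0.77 and -0.48. The summed level of the dopamine list was 118.5 to 119.8 FPKM in vector, 101.2 to 123.9 FPKM in AKG and 122.5 to 144.1 FPKM in combined libraries, against 223.2 to 242.2 FPKM in control libraries.

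**Figure D5:**
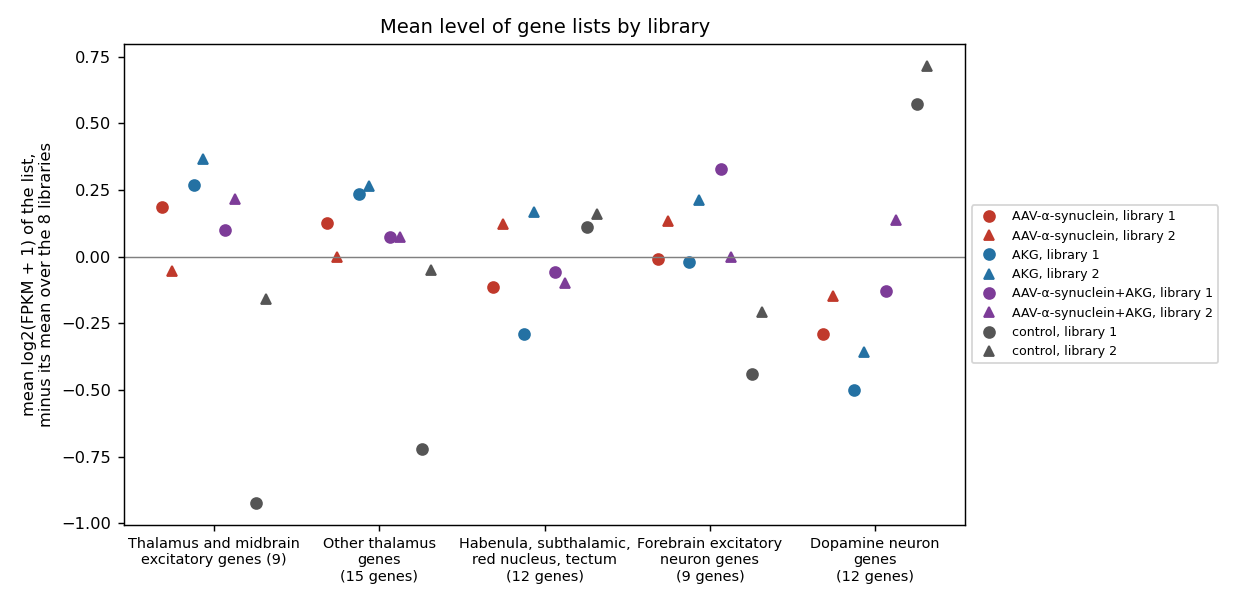
Mean log2(FPKM + 1) of 5 gene lists in each library, minus the mean over the 8 libraries (circle, library 1; triangle, library 2). The 9 genes and the other thalamus genes are lowest in control library 1, and dopamine neuron genes are highest in the 2 control libraries; the 12 habenula, subthalamic, red nucleus and tectum genes show no such order.

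Cells that also use some of the 9 genes were checked through their own markers. Of 6 tested cerebellar genes 4, 3 and 3 were higher in vector, AKG and combined mice; without control library 1 it was 2, 4 and 3. Newly formed oligodendrocyte genes, another place of Tcf7l2, were higher for 5, 6 and 7 of 9 with medians of 0.080, 0.17 and 0.11. Brain endothelial genes, another place of Lef1, were higher for 8, 9 and 10 of 12 with medians of 0.17, 0.25 and 0.31, and control library 1 was the lowest for 9 of the 12. Smooth muscle and pericyte genes were higher for 7 of 8 in each treated group, with medians of 0.19, 0.17 and 0.37. The list of meningeal fibroblast genes, another place of Zic1, summed to 34.0 FPKM in control library 1 and 16.4 to 24.7 FPKM elsewhere. The 10 choroid plexus genes were all highest in control library 1, where they summed to 9475 FPKM, against 94.2 to 5281 FPKM in the other libraries. Without control library 1 the medians were -0.089, -0.0010 and 0.024 for newly formed oligodendrocyte genes (4, 4 and 5 of 9 higher), 0.013, 0.019 and 0.12 for endothelial genes (6, 6 and 9 of 12) and -0.0013, 0.037 and 0.15 for smooth muscle and pericyte genes (4, 4 and 5 of 8). By limma 0 genes of these lists were called in the 3 comparisons with control. The part of these cells in the differences of the 9 genes was not tested.

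The list of TCF/LEF and Wnt target genes also holds Ctnnb1, which encodes β-catenin, the partner of the factors that Tcf7l2 and Lef1 encode. It is therefore not only a readout of these factors. Of its 9 tested genes, 8 were higher in each treated group, with medians of 0.12, 0.26 and 0.13. By limma 0 were called, and 1, 1 and 0 were higher at an unadjusted p under 0.05. Control library 1 was the lowest library for 7 of them, and without it 5, 5 and 4 were higher, with medians of 0.0087, 0.083 and -0.020. Of 19 tested relatives of the 9 genes, 14, 13 and 14 were higher in vector, AKG and combined mice, with medians of 0.21, 0.25 and 0.29. By limma 0 were called, and 6, 9 and 8 were higher at an unadjusted p under 0.05. Without control library 1, 13, 16 and 12 were higher, with medians of 0.14, 0.16 and 0.14. Some of these relatives, such as Slc17a7, Rorb, Zic2 and Zic4, were also counted in the lists above.

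The 9 genes also differed in how closely they tracked each other. Over the 8 libraries, the correlation of a gene with the mean of the other 8 was 0.994 for Lef1, 0.943 to 0.953 for Tcf7l2, Rora, Synpo2 and Prkcd, 0.851 for Slc17a6, 0.853 for Zic1, 0.744 for Tnnt1 and -0.645 for Calb2. Over the 7 libraries without control library 1 it was 0.944 for Lef1, 0.853 for Zic1, 0.818 for Rora and Synpo2, 0.756 for Prkcd and 0.753 for Tcf7l2, but 0.467 for Tnnt1, 0.348 for Slc17a6 and -0.283 for Calb2. The points share control library 1 and a length trend, so these values only describe the libraries. Among 7515 protein-coding genes at 5 FPKM or more on average, Kitl (r = 0.991), Shisal1 (0.988), Slc25a23 (0.986), Rtn4r (0.982) and Gabra4 (0.982) were most like the mean of the 9 genes over 8 libraries. Over 7 libraries the most like included Shisal1 (0.977), Gabbr2 (0.964), Slc25a23 (0.964) and Parvb (0.951). Kitl, the ligand of the receptor tyrosine kinase Kit, was at 13.7 and 11.9 FPKM in vector, 13.9 and 17.6 FPKM in AKG and 12.9 and 11.9 FPKM in combined libraries, against 5.32 and 11.03 FPKM in control libraries.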

How the data were processed

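The 8 libraries fall into 4 groups of 2. RNA came from an RNeasy column, and sequencing libraries from a SMARTer kit for mRNA, per the labels' protocols. GRCm38 and mm10 are the builds in the submitters' processing notes. The aligner, counting tool and strand setting were not given in sources used here. A single table of FPKM values, with gene lengths and coordinates, was deposited by the authors, per the file headers. Its values were whole reads scaled by length and library for 100% of values (within 0.01 of a read).

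The 13716 genes averaging 1 FPKM or more were tested on log2(FPKM + 1) with limma 3.58.1 in R 4.3.3: all 8 libraries in 1 fit with a mean for each group, trended eBayes, 4 residual degrees of freedom, two-sided, Benjamini-Hochberg over all tested genes, threshold 0.05. The 6 comparisons were vector, AKG and combined against control, combined against vector and against AKG, and the interaction. The 9 genes and 15 further gene lists were chosen with earlier results of these data known. Some genes are in more than 1 of the 15 lists, so the lists are not independent of each other. Named genes of a list are up to 4 with the highest mean. A few genes that the rule names are not reported here. Alternatives were other filters, pseudocounts and scalings, no trend, only the groups compared, a replicate block and leaving out each library; after seeing the data, voom on recovered reads, removal of a length and GC trend (spline, 5 degrees of freedom), library weights and gene lists without 1 control library were added. Promoter windows came from RefSeq (GRCm38.p6). Tables and figures used Python 3.11.15, pandas 2.3.3 and matplotlib 3.10.9.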

Additional observations from a re-analysis of the deposited data

How the results depend on the processing

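The 9 genes kept their signs against control (8 higher, Calb2 lower) under every alternative, and none was called except without control library 2. In combined against vector mice Zic1 turned to -0.0081 with quantile normalization. In the interaction, which includes control mice, Calb2 turned to -0.12 with quantile normalization or with the length and GC trend removed. Leaving out 1 library each gave, in combined against vector mice, -0.046 to 0.63 for Prkcd, -0.15 to 0.10 for Tcf7l2, -0.078 to 0.20 for Rora, -0.039 to 0.18 for Lef1 and -0.018 to 0.24 for Synpo2. In combined against AKG mice it gave -0.38 to 0.091 for Prkcd, -0.37 to 0.073 for Calb2 and -0.32 to 0.60 for Tnnt1, and in the interaction -0.071 to 0.37 for Calb2 and -0.92 to 0.0044 for Tnnt1.

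Without a filter on low values, 5 genes of the whole table were called in vector, 12 in AKG and 4 in combined against control mice, 6 in combined against vector and 14 in combined against AKG mice. In AKG against control mice 2 genes were called with a pseudocount of 0.1 and 2 with the length and GC trend removed, and 0 without a trend in eBayes, with the replicate block or with library weights, against 1 as reported. In combined against control mice 1 gene was called with a pseudocount of 0.1 and 1 with the length and GC trend removed, against 0. Leaving out 1 library gave 0 to 3359 called genes in vector, 0 to 3376 in AKG and 0 to 2916 in combined against control mice and 0 to 1369 in the interaction, the highest each time without control library 2; the group left with 1 library is then assumed to vary like the others. Samples with the same number correlated by -0.32 to 0.34 in their deviations from the group means, so the numbers were not taken as pairs. With the replicate block the adjusted p of the 9 genes in vector against control mice was 0.394 to 0.479. With a minimum of 5 FPKM, Lef1 was not tested, and the interaction has no fit with only the groups compared. The cause of these shifts was not tested. Depth limits the 9 genes little, since each had at least 180.0 reads in every library.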

Other observations

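Lists not described above gave these values. Mature oligodendrocyte genes, the myelin-making set, were lower for 10 of 10 in vector mice and 9 of 10 in AKG mice, and higher for 7 of 10 in combined mice, than in control mice, with median log2 differences of -0.18, -0.15 and 0.063. In none of the lists named here was a gene called by limma in these comparisons, and at an unadjusted p under 0.05 the count for this list was 0. Their summed level was 1582 and 1341 FPKM in vector, 1320.1 and 1589 FPKM in AKG and 1424 and 2187 FPKM in combined libraries, against 1399 and 1999.9 FPKM in control libraries, so that each group spanned a wide range. Inhibitory neuron genes were higher for 5, 4 and 6 of 8 in vector, AKG and combined mice, with medians of 0.074, -0.078 and 0.24 and 0 at an unadjusted p under 0.05. Striatal projection neuron genes were higher for 4, 4 and 6 of 8, with medians of 0.018, 0.066 and 0.28 and 2 in each group at an unadjusted p under 0.05. Choroid plexus genes were lower for 9, 5 and 9 of 10, with medians of -1.13, -0.043 and -0.75 and 0 at an unadjusted p under 0.05, and meningeal fibroblast genes were higher for 4, 2 and 2 of 8, with medians of -0.084, -0.058 and -0.28 and 0, 2 and 1 at an unadjusted p under 0.05. Without control library 1 the medians in vector, AKG and combined mice were -0.39, -0.41 and -0.21 for mature oligodendrocyte genes, -0.060, -0.24 and -0.013 for inhibitory neuron genes and 0.10, 0.11 and 0.22 for striatal genes. The median thus changed sign for inhibitory neuron genes in vector and combined mice, and for mature oligodendrocyte genes in combined mice. The medians of 2 further lists changed sign in every treated group. Choroid plexus genes were then higher for 8, 10 and 10 of 10, with medians of 0.30, 1.45 and 0.60. Meningeal fibroblast genes were higher for 8, 8 and 7 of 8, with medians of 0.19, 0.27 and 0.15.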
